A study of Mus musculus with 20 samples.

Results

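The genes described here are 6 components and regulators of the complement system: Hc, C3, Cfi, Cfb, C2 and Serping1. They were chosen by symbol, and every probe set of the array that names a single gene and names one of these was taken. Of the 6 genes, 5 had such a probe set, with 1 probe set each, among 12393 genes so represented, and C3 was not analysed here. Hc (1419407_at), Cfi (1418724_at) and Serping1 (1416625_at) were bright enough to be tested, together with 8068 genes in all, while C2 (1416051_at) and Cfb (1417314_at) were dim. A gene counted as dim unless at least 5 of the 20 arrays gave it a log2 value above 4.

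RNA from left lung lobes of C57Bl6 embryos was profiled on Affymetrix arrays at 2 stages, E16.5 and E18.5, the second shortly before birth, with 1 animal per array. Mutants (GRCol1-Cre) lacked the glucocorticoid receptor, GR, in mesenchymal cells, because Cre came from a BAC spanning the gene for the alpha 2 chain of type I collagen. Controls carried the floxed GR gene (GR flox). Each genotype had 5 animals at each stage, taken by Caesarean section from staged matings, and cells outside the Cre lineage of the mutants kept their GR gene.

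Complement is a cascade of plasma proteins that tags and lyses microbes. Proteases of the classical, lectin and alternative routes assemble convertases that cleave C3 and then C5, and cleaved C5 starts the membrane attack complex. Soluble and membrane-bound regulators hold the cascade in check. The liver makes most of the circulating proteins, and lung epithelial cells, macrophages and mesenchymal cells make some of them locally.

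Nr3c1, the gene encoding GR, was lower in the mutants of both stages. Its log2 values were 6.31 to 7.50 in E16.5 mutants, against 8.58 to 9.15 in E16.5 controls, and 7.56 to 8.05 in E18.5 mutants, against 9.02 to 9.57 in E18.5 controls. A control animal stood apart at E18.5. On a line from the mean E16.5 control (0) to the mean E18.5 control (1), control replicate 3 lay at 0.70, among the E18.5 mutants at 0.45 to 0.77, while the other 4 E18.5 controls lay at 1.02 to 1.09. A control's own array was left out of these means. The line of control 3 thus ended at the mean of the other 4 E18.5 controls. For the mutants it ended at the mean of all 5. The E18.5 differences of Hc, Serping1, Cfi, C6, Clu, Cr1l, Cd93 and Ifit2 are given with and without control 3. By Xist and Y-linked genes, 5 of 5 embryos were female among E16.5 mutants and 1 of 5 among E16.5 controls, against 2 of 5 among E18.5 mutants and 3 of 5 among E18.5 controls, so that sex and genotype largely coincide at E16.5. Of the epithelial markers, Nkx2-1, which defines lung epithelium, was dim in all 20 arrays.

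Promoter sequence from the RefSeq promoter table is shown for Hc and for C6, C1ra and C1s1. These genes were lower in E18.5 mutants by more than 1 on the log2 scale. So was Itgb2 (-1.01), whose promoter is not shown. The 250 bases before the annotated start are given 5′ to 3′ on the gene's strand in build GRCm38.p6, in lower case, with capitals for AGAACA, the core hexamer of the GR binding site.
Hc promoter, chr2:35061413-35061662, minus strand: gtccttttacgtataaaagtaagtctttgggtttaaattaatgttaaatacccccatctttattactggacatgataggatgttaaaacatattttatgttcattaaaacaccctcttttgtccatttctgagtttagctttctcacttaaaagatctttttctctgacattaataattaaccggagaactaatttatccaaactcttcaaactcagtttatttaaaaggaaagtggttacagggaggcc
C6 promoter, chr15:4726960-4727209, plus strand: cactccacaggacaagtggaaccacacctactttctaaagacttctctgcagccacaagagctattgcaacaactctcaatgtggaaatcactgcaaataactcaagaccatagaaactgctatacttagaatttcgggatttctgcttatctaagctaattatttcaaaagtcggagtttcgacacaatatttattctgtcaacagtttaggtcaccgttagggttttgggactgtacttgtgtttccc
C1ra promoter, chr6:124512371-124512620, plus strand: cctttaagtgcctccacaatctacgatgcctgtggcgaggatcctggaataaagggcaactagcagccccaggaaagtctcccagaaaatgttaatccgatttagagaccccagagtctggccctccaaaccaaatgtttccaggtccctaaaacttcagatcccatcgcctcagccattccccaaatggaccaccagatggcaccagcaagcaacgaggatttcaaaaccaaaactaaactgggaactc
C1s1 promoter, chr6:124542360-124542609, minus strand: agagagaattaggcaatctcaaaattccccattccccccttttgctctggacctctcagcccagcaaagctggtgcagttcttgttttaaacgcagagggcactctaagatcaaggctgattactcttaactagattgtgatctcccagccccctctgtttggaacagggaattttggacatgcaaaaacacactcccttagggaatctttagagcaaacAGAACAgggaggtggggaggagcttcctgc
Both strands were searched for AGAACA, for the full GR palindrome (AGAACA, 3 bases of any kind, TGTTCT), for C/EBP-type TTNNGNAA, STAT-type TTCNNNGAA, an NF-kB-type pattern (GGG, 5 bases of any kind, CC) and for TATAAA. The C1s1 window held AGAACA at bases -30 to -25 from the start, and the Hc, C6 and C1ra windows held none. Among 32536 windows of this length, 5216 held AGAACA and 0.00922% held the full palindrome, which none of the 4 windows did. The Hc window, with 31.2% G and C, held TATAAA at bases -239 to -234 and no other of these motifs. C/EBP-type letters stood at 2 places in C6 (-219 to -212 and -87 to -80), in C1ra (-72 to -65 and -29 to -22) and in C1s1 (-242 to -235 and -52 to -45), and 36.8% of all windows held them. No 2 of these matches overlapped in a window. The C1s1 window is that of the start listed first of 2.

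Hc encodes complement C5, whose cleavage yields the attractant C5a and starts the membrane attack complex. It lies on chromosome 2 between Traf1 and AI182371. Its log2 values at E16.5 were 2.997, 3.03, 3.31, 2.74 and 3.03 in mutants, against 2.80, 2.86, 2.82, 3.10 and 4.74 in controls. At E18.5 they were 9.29, 9.16, 11.03, 8.45 and 10.99 in mutants, against 11.71, 11.63, 9.58, 11.28 and 11.80 in controls. Hc was thus near the bottom of the scale at E16.5, with control replicate 5 as the exception, and bright in all 10 animals at E18.5. Group means were 9.78 ± 1.17 in E18.5 mutants and 11.20 ± 0.93 in E18.5 controls (SD, n = 5 each).

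The developmental change of Hc was 6.76 on the log2 scale in mutants (SE 0.50) and 7.94 in controls (SE 0.50), with limma adjusted p-values of 2.44e-08 and 4.33e-10. The change in controls was 8.54 with array weights. Because the E16.5 values are dim, these differences measure E18.5 brightness against the floor of the array more than a fold change. At E18.5, Hc was lower in mutants, by -1.42 on the log2 scale (SE 0.50, limma adjusted p 0.0356), a level 37.4% of that of controls. Mutants 1, 2 and 4 lay below all controls, while mutants 3 and 5 lay between control 3 and the other 4 controls. Without control 3 the difference was -1.82 (SE 0.46, limma adjusted p 0.00452), and all 5 mutants lay below the remaining 4 controls. The call was lost in 7 of 20 fits that left out an animal: without E18.5 control 1, 2, 4 or 5 (-1.29, -1.31, -1.40 and -1.27) or without E18.5 mutant 1, 2 or 4 (-1.29, -1.26 and -1.08). It was also lost with sex as a covariate (-1.37, limma adjusted p 0.0502). At E16.5 the difference was -0.24 (SE 0.50, limma adjusted p 1.00), and it was 0.13 without control replicate 5.

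C2 and Cfb encode the serine proteases that form the classical and the alternative C3 convertase. Their genes are neighbours on chromosome 17, with Nelfe before Cfb and Zbtb12 after C2. C2 read 2.34, 2.39, 2.38, 2.40 and 2.39 in E16.5 mutants, against 2.35, 2.39, 2.37, 2.39 and 2.39 in E16.5 controls. At E18.5 it read 2.35, 2.37, 2.46, 2.56 and 2.84 in mutants, against 4.43, 3.69, 3.26, 4.01 and 4.28 in controls. All 5 E18.5 mutants lay below all 5 E18.5 controls, and control 3 was the lowest control. The mutants and controls 2 and 3 were all below the dim limit of 4, however, where values have no order. Over the genes tested, which do not include C2, 9.13% lay lower in this way.

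C2 was above 4 in 3 arrays, all of E18.5 controls, so it was not among the genes tested. In the fit without the filter on dim genes its E18.5 difference was -1.41 (SE 0.16, limma adjusted p 8.11e-06), where 10.6% of 12393 genes were called lower. In that fit, the developmental change was 0.14 in mutants (limma adjusted p 0.480) and 1.56 in controls (limma adjusted p 2.22e-07), where 36.8% and 48.1% of those genes were called. The mutant effect differed between the stages by -1.42 (SE 0.22, limma adjusted p 0.00137), and 4.42% of those genes were called. Since the mutant values lie at the floor, these log2 differences are no measure of fold. The SD of C2 was 0.02 in both E16.5 groups, 0.20 in E18.5 mutants and 0.47 in E18.5 controls. The fit pools the 4 groups, so its SE understates the spread at E18.5, and its p-values rest on that SE. Cfb had no reading above the floor: its values over all 20 arrays were 2.61 to 2.74, with means of 2.67 in E18.5 mutants and 2.68 in E18.5 controls.

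Serping1 encodes C1 inhibitor, the serpin that inactivates the C1r and C1s proteases. It lies on chromosome 2 between Ypel4 and Ube2l6. Its E16.5 readings were 8.83, 8.69, 9.13, 9.02 and 9.33 in mutants, against 9.04, 9.11, 8.999, 9.41 and 9.73 in controls. At E18.5 they were 10.49, 10.48, 10.69, 10.35 and 10.84 in mutants, against 11.36, 11.31, 11.23, 11.32 and 11.29 in controls. The genotypes overlapped at E16.5. At E18.5 all 5 mutants lay below all 5 controls, as in 9.13% of the genes tested. The 5 E18.5 controls, control 3 included, spanned the narrow range from 11.23 to 11.36.

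Serping1 was lower in E18.5 mutants, by -0.73 on the log2 scale (SE 0.14, limma adjusted p 0.000524), a level 60.3% of that of controls. The difference was -0.75 without control 3, and it was called in all 20 fits that left out an animal, between -0.80 and -0.67. At E16.5 it was -0.26 (SE 0.14, limma adjusted p 1.00, unadjusted p 0.0719). From E16.5 to E18.5 Serping1 rose 2.98-fold in mutants (log2 1.57, SE 0.14, limma adjusted p 7.94e-08) and 4.13-fold in controls (log2 2.05, SE 0.14, limma adjusted p 5.50e-10).

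Cfi encodes factor I, the protease that inactivates C3b and C4b with the help of cofactors. It lies on chromosome 3 between Gar1 and Pla2g12a. Its log2 values at E16.5 were 8.26, 8.47, 7.99, 7.47 and 7.69 in mutants, against 8.47, 8.30, 8.09, 8.25 and 7.45 in controls. At E18.5 they were 6.09, 5.64, 5.26, 4.49 and 4.65 in mutants, against 4.08, 3.82, 4.46, 4.14 and 4.26 in controls. All 5 E18.5 mutants lay above all 5 controls, as in 8.27% of the genes tested, the nearest pair being mutant 4 at 4.49 and control 3 at 4.46. The E18.5 controls lay close to the dim limit of 4, with control 2 below it.

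Cfi was higher in E18.5 mutants, by 1.07 on the log2 scale (SE 0.27, limma adjusted p 0.00487), or 2.10-fold. The difference was 1.15 without control 3, and it was called in all 20 fits that left out an animal, between 0.86 and 1.26. At E16.5 it was -0.14 (SE 0.27, limma adjusted p 1.00). From E16.5 to E18.5 Cfi fell to 14.9% of its level in mutants (log2 difference -2.75, SE 0.27, limma adjusted p 2.74e-07) and to 6.43% in controls (log2 difference -3.96, SE 0.27, limma adjusted p 6.91e-10). Cfi thus fell between the stages while Hc and Serping1 rose.

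**Figure D1:**
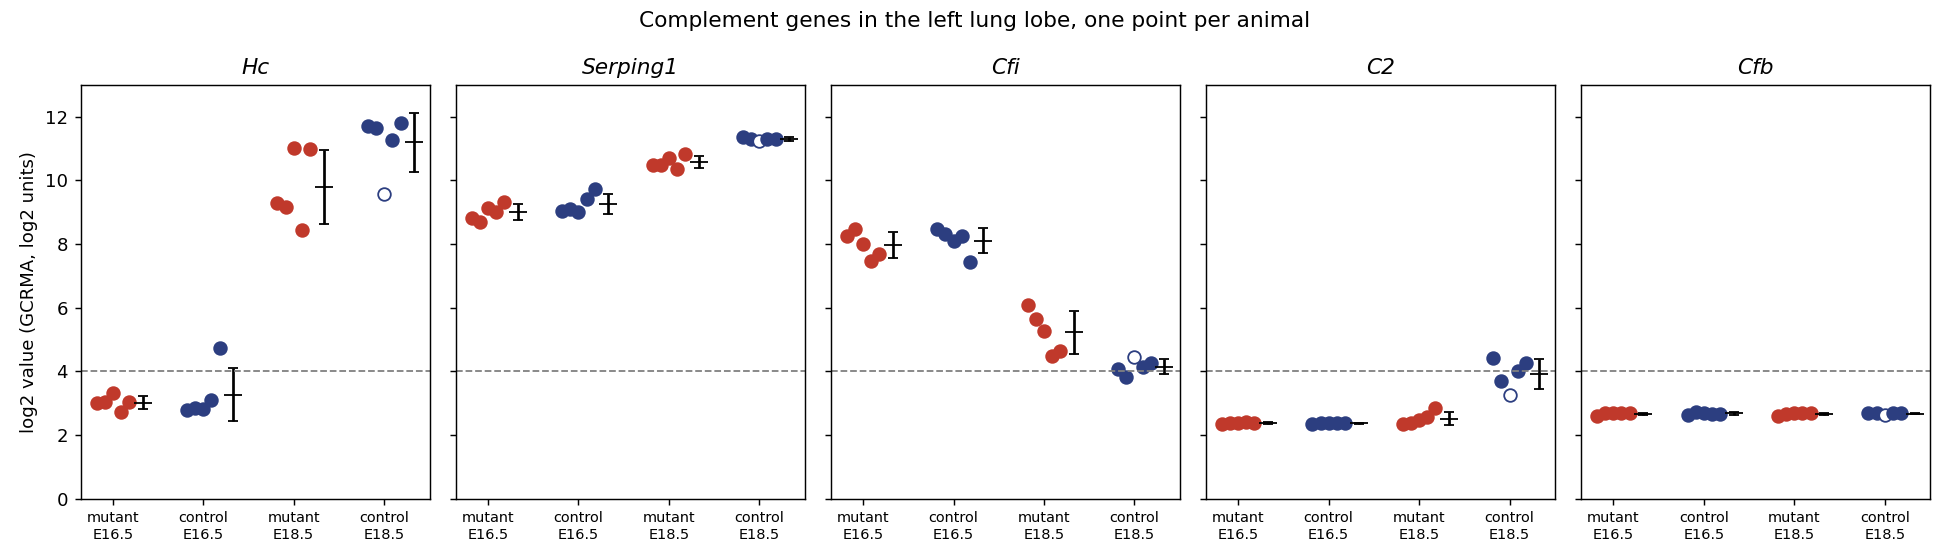
Log2 values of Hc, Serping1, Cfi, C2 and Cfb, with 1 point per animal in mutants and controls of each stage, the mean ± SD (n = 5) beside the points and the limit for dim values, 4, as a dashed line. The open point is E18.5 control replicate 3. At E18.5 Serping1 and C2 lay lower, and Cfi higher, in all 5 mutants than in all 5 controls, and Cfb stayed between 2.61 and 2.74. Over the genes tested, which do not include C2, 9.13% lay lower and 8.27% higher in this way.

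Across the tested members, none of 3 was called between mutants and controls at E16.5, where 0.248% of 8068 genes were, or 20 genes (356 genes had an unadjusted p under 0.05, and none of the 3 members did). At E18.5 all 3 were called, 2 lower (Hc and Serping1) and 1 higher (Cfi), where 34.5% of all genes tested were called, 15.9% lower and 18.6% higher. All 3 changed between the stages in mutants, where 56.2% of all genes did (28.7% higher and 27.6% lower at E18.5), and in controls, where 70.9% did (35.3% higher and 35.5% lower). With so few members, and with shares this high over all genes, the counts describe these genes only. The median E18.5 difference was -0.73 over the 3 members and 0.03 over all genes tested.

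The difference between the mutant effects at E18.5 and at E16.5 (interaction) was called for 0 of 3 tested members, against 8.4% of all genes. It was -1.18 for Hc (SE 0.71, limma adjusted p 0.323), -0.47 for Serping1 (SE 0.19, limma adjusted p 0.129) and 1.21 for Cfi (SE 0.38, limma adjusted p 0.0546). Serping1 had an unadjusted p of 0.0232, Cfi of 0.00482 and Hc of 0.115. A larger effect at E18.5 than at E16.5 was therefore not established for these 3 genes.

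**Figure D2:**
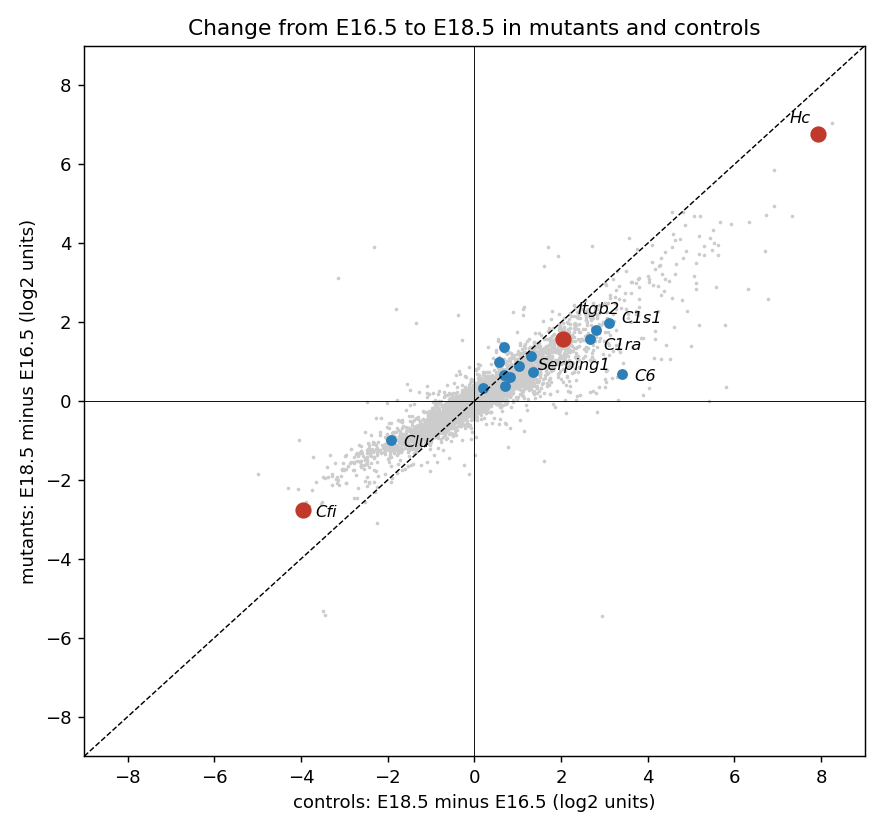
Change from E16.5 to E18.5 on the log2 scale in mutants (vertical axis) and controls (horizontal axis) for all genes tested (grey), the other complement genes (blue) and the members Hc, Serping1 and Cfi (red); the dashed line marks equal change. Hc changed by 6.76 in mutants and 7.94 in controls, Cfi by -2.75 and -3.96, and C6 by 0.69 and 3.40.

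Of 43 other complement genes listed, 35 had a single-gene probe set, and 14 of these were bright enough to be tested. None of the 14 was called between mutants and controls at E16.5, where 0.248% of all genes tested were. The differences of the 14 at that stage lay between -0.47 and 0.14, and no unadjusted p was under 0.05. At E18.5, 6 were lower, 2 were higher and 6 were not called, where 15.9% of all genes tested were lower and 18.6% higher. The median difference was -0.20 over the 14 genes and 0.03 over all genes tested. C6, C1ra, C1s1 and Itgb2 were dim in every E16.5 animal and entered the test through E18.5 animals. Above 4 were 4 controls and 1 mutant for C6, and 5 controls and 2 mutants for C1s1. For C1ra they were 5 controls and 4 mutants, and for Itgb2 5 of each. C6 thus passed the filter mainly through the group where it was high.

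Among the proteases that start the classical route, C1ra read 4.27, 3.85, 5.05, 4.46 and 5.72 in E18.5 mutants, against 6.18, 5.84, 5.81, 5.81 and 5.87 in E18.5 controls. All mutants lay below all controls, as in 9.13% of the genes tested, and the log2 difference was -1.23 (SE 0.23, limma adjusted p 0.000493). C1s1, its neighbour on chromosome 6, read 3.77, 3.70, 5.704, 3.98 and 5.76 in E18.5 mutants, against 5.79, 5.37, 6.01, 5.99 and 5.84 in E18.5 controls. Mutants 1, 2 and 4 were below all controls while mutants 3 and 5 overlapped them, and the difference was -1.21 (SE 0.35, limma adjusted p 0.0111). The C1s1 call was lost when only the arrays of the groups compared were fitted (limma adjusted p 0.0529). C1rb is a near-identical copy of C1ra, so that the C1ra signal may be shared with it. Of the genes for C1q, which recognises antibody on a surface, C1qa, C1qb and C1qc were not called, with E18.5 differences of -0.01, 0.10 and -0.09.

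In the terminal pathway, C6, which binds C5b in the membrane attack complex, read 2.77, 2.85, 5.12, 2.77 and 3.58 in E18.5 mutants, against 7.15, 6.48, 3.86, 6.60 and 6.60 in E18.5 controls. It was dim in 4 of 5 mutants and in control 3. The difference was -2.72 (SE 0.48, limma adjusted p 0.000366). Since mutants 1, 2 and 4 lay at the floor of the array, it is no measure of fold. Without control 3 it was -3.29 (SE 0.33, limma adjusted p 8.96e-07), with all 5 mutants below the remaining controls. C6 changed between the stages by 0.69 in mutants (SE 0.48, limma adjusted p 0.234) and by 3.40 in controls (SE 0.48, limma adjusted p 4.33e-06), and it was at 2.66 to 2.79 in all 10 E16.5 animals. The SD of C6 was 0.04 and 0.05 in E16.5 mutants and controls, against 1.01 and 1.30 in those of E18.5. The SE, pooled over the 4 groups, thus understates the E18.5 spread. Over the alternatives run, the limma adjusted p of the E18.5 difference was at most 0.0119.

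Of the regulators, Clu, whose product clusterin binds terminal complement complexes, read 12.76, 12.76, 11.54, 13.15 and 11.60 in E18.5 mutants, against 11.10, 10.92, 12.44, 11.09 and 11.14 in E18.5 controls. Mutants 1, 2 and 4 lay above all controls, and control 3 lay with the mutants. The difference was 1.02 (SE 0.29, limma adjusted p 0.0112), it was 1.30 without control 3, and the other 3 probe sets of Clu gave 1.00 to 1.23. The Clu call was lost when only the arrays of the groups compared were fitted (limma adjusted p 0.0644). Clu fell between the stages by 0.98 in mutants and by 1.92 in controls, the only one of the 14 that fell. Cd59a, which blocks assembly of the membrane attack complex and lies next to Cd59b, was higher by 0.41 (SE 0.13, limma adjusted p 0.0218). Cr1l, the rodent regulator Crry, was lower, with a mutant minus control value of -0.33 (SE 0.09, limma adjusted p 0.0116) and of -0.27 without control 3. All 5 mutants lay below all 5 controls for Cr1l, as in 9.13% of the genes tested. Cd55, which speeds the decay of convertases, had a difference of -0.50 (SE 0.19) with a limma adjusted p of 0.05005 and was not called. It was called under 4 of 12 alternatives, with limma adjusted p-values of 0.0195 to 0.0492, and in 3 of 20 fits that left out an animal.

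Of the receptors, Itgb2, the shared chain of complement receptors 3 and 4 on leukocytes, read 4.68, 4.93, 5.32, 4.34 and 5.10 in E18.5 mutants, against 5.98, 5.81, 5.44, 5.73 and 6.44 in E18.5 controls. All mutants lay below all controls for Itgb2, as in 9.13% of the genes tested, and the difference was -1.01 (SE 0.20, limma adjusted p 0.00098). Its partner chains Itgam and Itgax were dim in all 20 arrays. Cd93 was lower, with a mutant minus control value of -0.30 (SE 0.10, limma adjusted p 0.0314) and 3 of 5 mutants below all controls. Without control 3 this value was -0.36, with all 5 mutants below the remaining controls. The Cd93 call was lost without E18.5 control 1, 2 or 5 or without E18.5 mutant 2 or 5. The Cd59a call was lost without E18.5 control 1 or 4 or without E18.5 mutant 2.

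The interaction was called for 3 of these 14 genes, where 8.4% of all genes were, with C6 at -2.72 (SE 0.68, limma adjusted p 0.0195), C1ra at -1.10 (SE 0.32, limma adjusted p 0.0414) and Itgb2 at -0.9998 (SE 0.29, limma adjusted p 0.0385). All 3 were dim at E16.5 in both genotypes, where a difference could hardly be read. With sex as a covariate the adjusted p was 0.0847 for C6 and 0.172 for Itgb2. Of 20 fits that left out an animal, the call held in 20 for C6, in 5 for C1ra and in 7 for Itgb2. With no filter on dim genes the adjusted p was 0.0675 for C1ra and 0.0636 for Itgb2, so that these calls lie close to the threshold. The 21 dim genes of the list included the lectin pathway genes Masp1, Masp2, Mbl1, Mbl2 and Fcna, the terminal components C8a, C8b, C8g and C9 and the receptors C3ar1 and C5ar1. Of the 21, Masp1 was above 4 in 3 arrays and Fcna in 1 array, and the other 19 in none. The 3 arrays of Masp1 were all of E18.5 mutants, where it read 3.67 to 4.42, against 3.20 to 3.34 in E18.5 controls. The 1 array of Fcna was of an E18.5 control. Neither gene was among those tested.

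**Figure D3:**
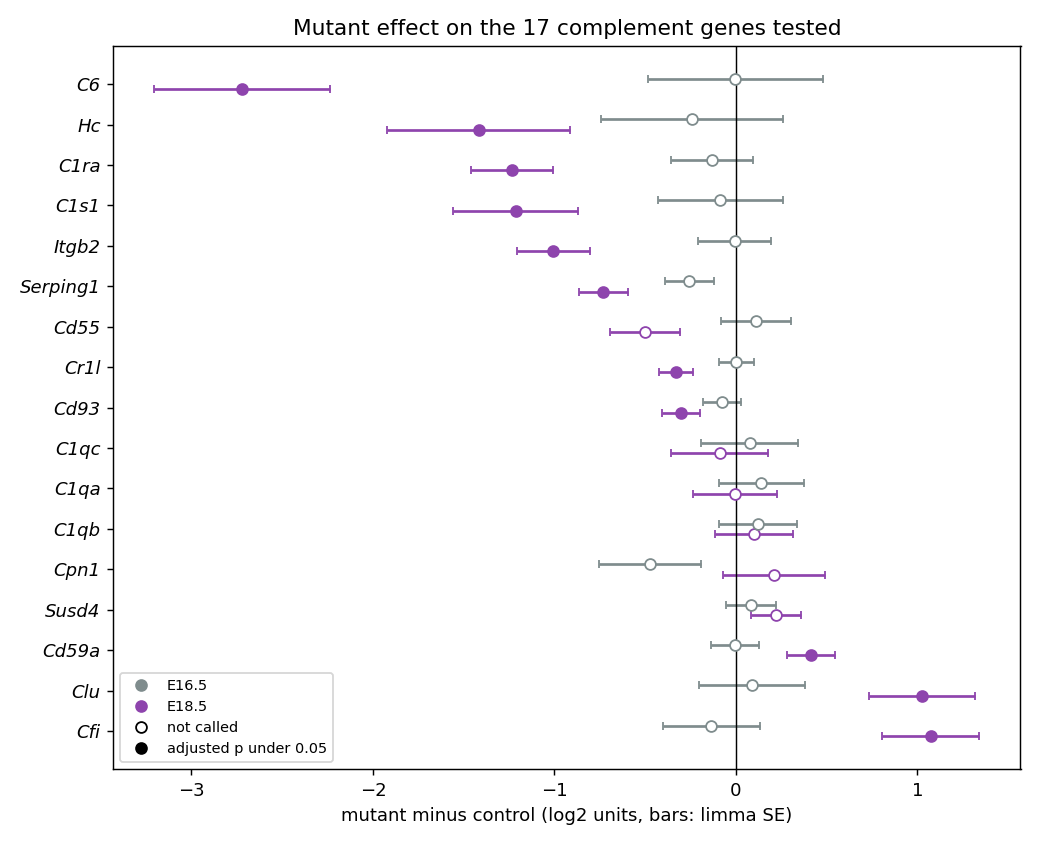
Mutant minus control on the log2 scale for the 17 complement genes tested, at E16.5 (grey) and E18.5 (purple), with bars for the limma SE and filled points for an adjusted p under 0.05. None was called at the earlier stage, where 0.248% of all genes tested were. The E18.5 differences ran from -2.72 for C6, which was at the floor of the array in 3 mutants, to 1.07 for Cfi.

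The E18.5 animals differed among themselves in an order shared by several of these genes. Mutants 3 and 5 had the highest Hc, C6, C1ra, C1s1, Itgb2 and Serping1 and the lowest Clu of the 5 mutants. Their stage positions were 0.76 and 0.77, against 0.45 to 0.52 for mutants 1, 2 and 4. Cfi did not follow this order in the mutants. Those nearest the controls were mutant 4 (4.49), at the lowest stage position of 0.45, and mutant 5 (4.65). Control 3, at 0.70, had the lowest Hc, C6, Itgb2 and C2 and the highest Clu of the 5 controls, while its C1s1 was the highest of the controls. Mutants 3 and 5 had 89.0% and 86.6% of the mean Hc level of controls, against 26.5%, 24.3% and 14.8% in mutants 1, 2 and 4 and 32.5% in control 3. The control mean in these shares includes control 3, which lowers it. The stage position was taken over all genes tested, weighted by their developmental change, so the tested complement genes are themselves part of it. The part of the stage position in these values was not tested.

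**Figure D4:**
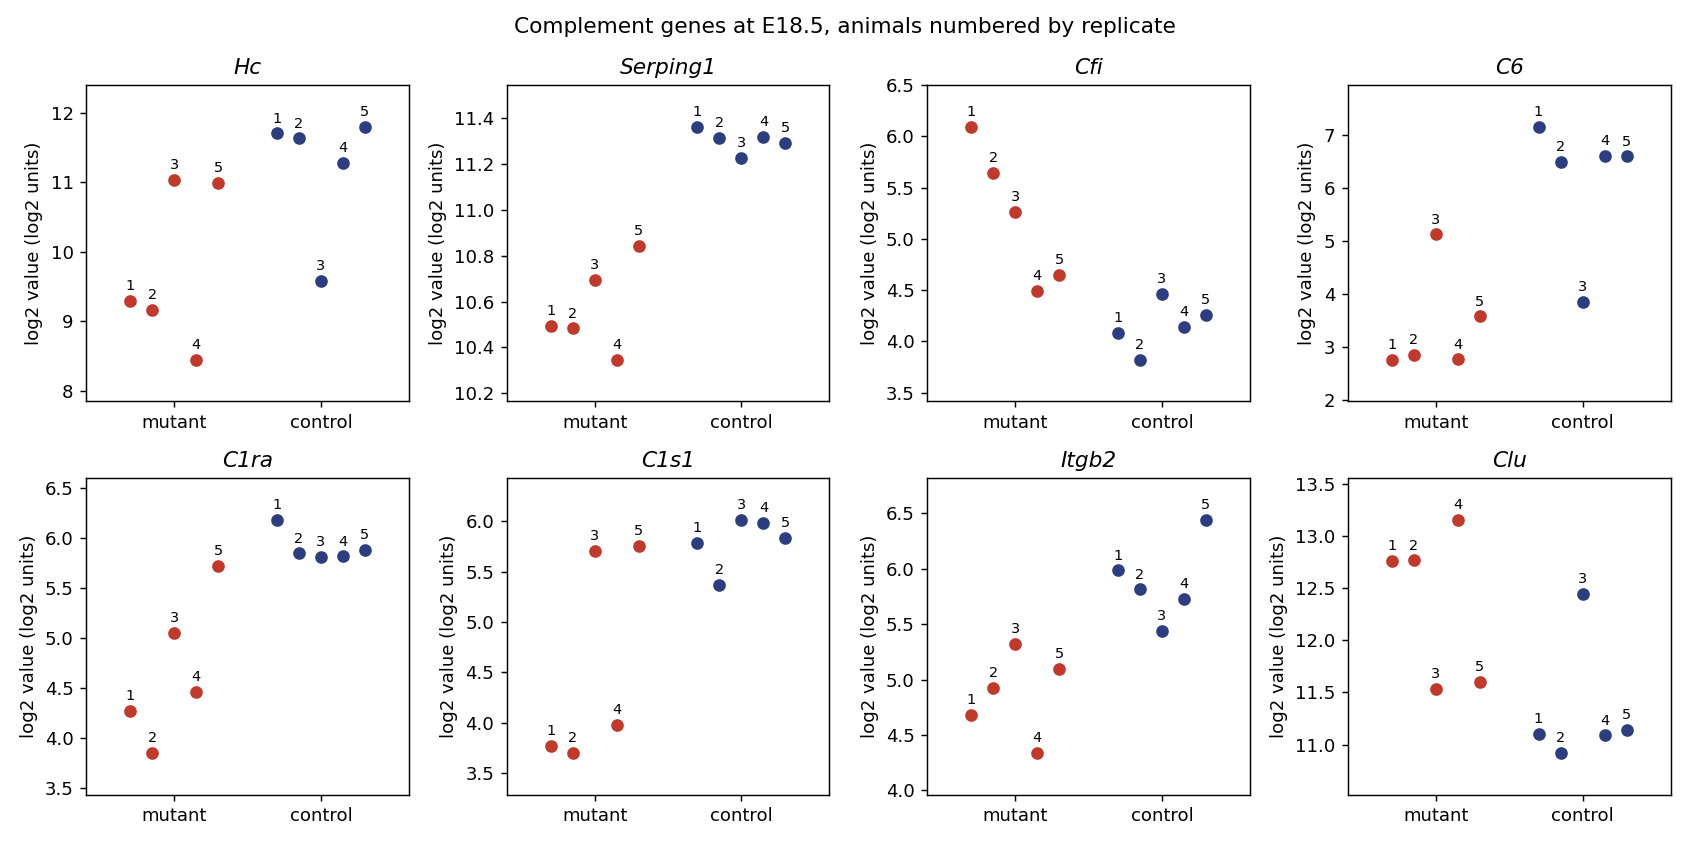
Log2 values of 8 complement genes in the 10 animals of E18.5, mutants left and controls right, each point numbered by its replicate. Mutants 3 and 5 lay closest to the controls for Hc, C6, C1s1 and Clu, and control 3 lay with the mutants for Hc, C6 and Clu but not for Serping1, C1ra or C1s1.

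Of 15 genes listed around Cfb and C2 on chromosome 17, 9 were tested, and at E18.5 4 were higher, 1 was lower and 4 were not called. Over all genes tested, 18.6% were higher and 15.9% lower at E18.5. Zbtb12, next to C2, was higher by 1.45 (SE 0.30, limma adjusted p 0.0012), Nelfe, next to Cfb, by 0.37 (SE 0.11, limma adjusted p 0.0125), Lsm2 by 0.45 and Ehmt2 by 0.22. Neu1, the lysosomal sialidase, was lower, with a mutant minus control value of -0.57 (SE 0.17, limma adjusted p 0.0122). The Lsm2 call was lost in 11 and the Ehmt2 call in 5 of 20 fits that left out an animal. None of the 9 genes was called at E16.5, where 0.248% of all genes tested were.

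Complement genes are induced by inflammatory and interferon signals in many tissues, and lists for both were counted beside them. Of 20 acute phase and NF-kB genes listed, 13 were tested, and 7 were lower, 2 higher and 4 not called in E18.5 mutants, where 34.5% of all genes were called and 15.9% were lower. Lcn2, which sequesters bacterial siderophores, differed by -3.52 (SE 0.73, limma adjusted p 0.00129), the acute phase gene Saa3 by -1.84 (SE 0.18, limma adjusted p 6.24e-07), Cp (ceruloplasmin) by -1.80 (SE 0.47, limma adjusted p 0.00635) and Cebpd, a transcription factor of the acute phase, by -1.72 (SE 0.16, limma adjusted p 2.76e-07). Over fits that left out an animal, the Lcn2 difference ran from -4.29 (without E18.5 mutant 3) to -2.95. That of Cebpd was -0.86 for the mean of its probe sets. Of 21 interferon genes listed, 12 were tested, and Ifngr2 (-0.88) and Ifngr1 (-0.39), the receptor chains for interferon gamma, were lower, Ifit2 (0.43) was higher and 9 were not called. The Ifit2 call was lost in 5 of 20 fits that left out an animal, among them the fit without E18.5 control 3, where the difference was 0.24. None of the 13 or of the 12 was called at E16.5, where 0.248% of all genes tested were.

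Over the 20 arrays the genes most like Hc were Sftpd, a surfactant collectin (Pearson r 0.994), Plet1 (0.991) and Scd1, a fatty acid desaturase (0.991). Serping1 was most like the tetraspanin gene Cd9 (0.995), Selenbp1 (0.993) and Emp2 (0.993), and Cfi was most like the primase subunit gene Prim2 (0.984), the proteasome gene Psmc1 (0.977) and Psat1 (0.977), an enzyme of serine synthesis. These correlations describe values that share the step between the stages. For deviations from the 4 group means they were 0.87 to 0.90 for the genes like Hc, 0.87 to 0.95 for those like Serping1 and 0.70 to 0.73 for those like Cfi. Sftpd itself differed at E18.5 by -1.23 (SE 0.48, limma adjusted p 0.0517) and was not called.

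Markers of cell types were counted beside these genes. Over all genes tested, 34.5% were called at E18.5, 15.9% lower and 18.6% higher. A summed level adds values taken off the log scale, so the brightest markers weigh most. In bulk tissue, fewer cells of a type and less RNA per cell cannot be told apart. Macrophage markers, 12 in number, had a log2 summed level of 10.54 to 11.19 in E18.5 mutants, against 10.82 to 11.32 in E18.5 controls, with 1 of 10 tested members called (Aif1, higher) and Marco dim throughout. Of 10 hepatocyte markers, 7 (Apoa1, Apob, Ahsg, Fga, Fgb, Fgg and Serpina1b) were dim in all 20 arrays, and the summed level was 6.03 to 8.30 in E18.5 mutants, against 6.30 to 8.77 in E18.5 controls. Alb and Afp were the 2 tested, and 0 of 2 were called between the genotypes at E18.5, with a median difference of -0.71. Both were called higher at E18.5 than at E16.5 in controls, where 35.3% of all genes were. In mutants 0 of 2 were, where 28.7% of all genes were called higher. Of the 8 type II cell markers none was called, with a summed level of 15.93 to 16.37 in E18.5 mutants, against 16.27 to 16.52 in E18.5 controls. Neutrophil markers summed to 8.64 to 11.79 in E18.5 mutants, against 9.90 to 11.50 in E18.5 controls, with 0 of 2 tested called. Lung epithelial markers summed to 13.27 to 13.47 in mutants, against 13.35 to 13.53 in controls, with Foxa2 and Epcam higher and Krt8 lower. Summed markers of mesenchyme, mesothelium and endothelium did not overlap between the genotypes at E18.5. The 9 mesenchymal markers summed to 15.54 to 15.73 in mutants, against 15.80 to 16.08 in controls. Of these 9, Pdgfra, Tcf21 and Postn were called lower and 6 were not called, with a median difference of -0.11. The 4 mesothelial markers summed to 11.14 to 11.89 in mutants, against 12.78 to 13.06 in controls, with all 3 that were tested lower (Msln, Krt19 and Upk3b) and Wt1 dim throughout. The 7 endothelial markers summed to 12.52 to 12.82 in mutants, against 13.06 to 13.33 in controls, with 5 of 7 lower. The part of these cell types in the complement values was not tested.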

How the data were processed

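RNA of the left lung lobe was hybridized to Affymetrix arrays, 20 in all and 5 per group. The deposited values are on the log2 scale and were made by the authors with GCRMA, per the submitters' processing notes, which name no version. They were not transformed again. Array medians were 5.70 to 5.87, between 13088 and 13319 probe sets per array were above 4, and arrays of a group correlated at 0.989 to 0.998. The number of arrays limits the precision.

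Of 22690 probe sets, 20380 name 1 gene, 691 several and 1555 none in the platform annotation, and 64 are controls. The brightest single-gene probe set stood for a gene. Group means were fitted over all 20 arrays with limma 3.58.1 in R 4.3.3, two-sided, with Benjamini-Hochberg adjustment over 8068 genes; a gene was called at an adjusted p under 0.05. SE is limma's standard error, from a spread pooled over the 4 groups. For genes dim at E16.5 it can understate the spread at E18.5. The replicates are separate animals.

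The genes and lists, 176 entries of which 158 were on the array, were chosen with earlier results of these data known. Named were all members, other complement genes called in a mutant comparison, called neighbours of Cfb and C2, up to 4 called genes of each inducer list and the 3 genes most like each tested member; genes named beyond this were chosen after their values were seen. Chromosomes, neighbours and promoters are from RefSeq (GRCm38.p6). On simulated data for the E18.5 comparison over 8068 genes, 97% of log2 changes of 1 and 68% of log2 changes of 0.5 were recovered. Of the calls made there, 3.51% were false. Each simulated gene had the same spread in every group. The simulation therefore does not cover genes whose spread differs between the stages, such as C6 and C2. Alternatives covered the filter, normalization, probe sets, variance model, array weights, sex, replicate numbers and each array left out. Python 3.11.15, pandas 2.3.3, numpy 2.4.6 and matplotlib 3.10.9 served for tables and figures.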

Additional observations from a re-analysis of the deposited data

Results flagged for a closer look

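In groups of 5 animals a single animal stood apart from the rest in 8 of 52 combinations of gene and group, by Dixon's test at the 95% level, and chance alone flags about 1 in 20. E18.5 control replicate 3 accounted for 3 of the 8: it read 9.58 for Hc (others 11.28 to 11.80), 3.86 for C6 (others 6.48 to 7.15) and 12.44 for Clu (others 10.92 to 11.14). E16.5 control replicate 5 accounted for 2, reading 4.74 for Hc (others 2.80 to 3.10) and 3.68 for Itgb2 (others 2.84 to 3.02). E18.5 control replicate 1 read 6.18 for C1ra (others 5.81 to 5.87). Replicate 1 was low for Cfb in both mutant groups, at 2.61 in E16.5 mutants (others 2.68 to 2.70) and 2.61 in E18.5 mutants (others 2.67 to 2.68), values that all lie at the floor of the array.

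The mutant effect differed between E18.5 and E16.5, by limma's test of the difference itself, for C6 (-2.72, adjusted p 0.0195), C1ra (-1.10, adjusted p 0.0414) and Itgb2 (-0.9998, adjusted p 0.0385). All 3 genes were dim at E16.5. The call was lost for C1ra in 15 and for Itgb2 in 13 of 20 fits that left out an animal, and for both with no filter on dim genes (adjusted p 0.0675 and 0.0636). With sex as a covariate it was lost for C6 (adjusted p 0.0847) and Itgb2 (adjusted p 0.172).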

How the results depend on the processing

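The E18.5 differences of Serping1 and Cfi and the developmental changes of Hc, Serping1 and Cfi kept their direction and their call under the alternatives run. The E18.5 difference of Hc kept its direction but was not called when only the arrays compared were fitted (-1.42, adjusted p 0.0893), with no filter on dim genes (-1.42, adjusted p 0.0633) or with sex as a covariate (-1.37, adjusted p 0.0502); over fits that left out an animal it was -1.82 to -1.08. At E16.5 the difference of Hc turned to 0.0274 with array weights and to 0.13 without control replicate 5 (-0.36 to 0.13 over fits that left out an animal), and that of Cfi to 0.10 with sex as a covariate; none was called. The interaction became called for Hc with array weights (-1.59), for Serping1 with array weights (-0.55; -0.59 to -0.39 over fits that left out an animal) and for Cfi with quantile normalization (1.26), trend and robust variance (1.21) or array weights (1.36; 0.99 to 1.39 over fits that left out an animal). Members called in the interaction, 0 in all 3 tested, were 1 with no filter (C2), 1 with quantile normalization, 1 with trend and robust variance and 3 with array weights, and 0 to 2 over fits that left out an animal; other complement genes called there, 3, were 1 to 5 over these fits. The causes were not tested. Over all genes, E16.5 calls, 20, were 9 with only the arrays compared, 43 with array weights, 8 with sex as a covariate and 11 at an adjusted p under 0.01, and 13 to 22 over fits that left out an animal; E18.5 calls, 2784, were 1645 at an adjusted p under 0.01; developmental calls in controls, 5718, were 8586 with every probe set tested; interaction calls, 678, were 2244 with array weights, 403 with sex as a covariate and 166 at an adjusted p under 0.01, and 393 to 1445 over fits that left out an animal.

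Replicate numbers did not pair the animals at E18.5, where deviations of same-numbered mutants and controls correlated at -0.43 to 0.21. The best match there was the own number in 0 of 5 pairs. At E16.5 they correlated at -0.10 to 0.60, above 0.1 in 4 of 5 pairs, and the best match was the own number in 3 of 5. A pairing at E16.5 is therefore not settled. With the replicate block, 17 genes were called at E16.5, 2943 at E18.5 and 733 in the interaction, where Cfi was then called (1.21, adjusted p 0.0297), as the 1 member. With a replicate block within each stage, chosen after seeing the data, 12 genes were called at E16.5 and 443 in the interaction, 1 of the other complement genes was called in the interaction, and Hc at E18.5 was -1.42 (adjusted p 0.0660).

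Limits: brightness of a probe set does not measure protein, dim values have no order, C3 was not analysed, and at E16.5 sex and genotype largely coincide.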
